A study of Danio rerio with 4 samples.

Results

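The long arm of zebrafish chromosome 4 was taken as every listed H3K4me3 peak on chromosome 4 that starts at 27 Mb or beyond on the GRCz11 assembly. It held 917 of the 34889 DN peaks and 768 of the 17234 Ctrl peaks on chromosomes 1 to 25, that is 2.63% of the DN list and 4.46% of the Ctrl list. The rest of the chromosome, below 27 Mb, held 730 DN and 361 Ctrl peaks and served as the main comparison. The first DN peak of the arm starts at 27098359 and the last DN peak below it ends at 26888920, with folds over the genome-wide background of 3.77 and 3.68. The first Ctrl peak of the arm starts at 27014624 (fold 3.37), and the last Ctrl peak below it ends at 26913144 (fold 3.67).

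DN hearts carried 2 transgenes, ubi:loxp-DsRed-STOP-loxp-DN-xBrg1 and *kdrl*:CreER, of which the second uses the *kdrl* promoter, active in endothelial cells including the endocardium, to drive a tamoxifen-dependent Cre that switches on the dominant-negative *Xenopus* Brg1 of the first. Ctrl hearts carried the first transgene and no Cre. Fish of both groups were adults, were given 4-HT (4-hydroxytamoxifen) for 3 days, and then had the ventricle amputated, and ventricles freed of atrium and outflow tract were taken 7 days post-amputation (dpa). Each list comes from 1 ChIP library of about 25 pooled hearts, so that no comparison between DN and Ctrl has a replicate check and no p-value is given. Chromatin of all ventricular cells was used, and a change in endothelial cells cannot be told apart from a change in the share of any cell type. The 95% intervals cover counting error only, and because neighbouring peaks are not independent they are too narrow.

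H3K4me3 is laid down by the SET1/MLL methyltransferases on nucleosomes around active and CpG-rich promoters, and Brg1 is the motor subunit of SWI/SNF, which slides and evicts nucleosomes. The long arm of chromosome 4 is known in zebrafish for heterochromatin that replicates late and for large tandem families, among them NLR (NOD-like) immune receptor genes, C2H2 zinc finger genes and small noncoding RNA genes. It also carries the sex-linked region of natural strains. Because the authors kept only reads that align to 1 place, copies of such families that are identical over a read length could not contribute peaks. How much of the arm this removes was not tested. No gene annotation or genome sequence on GRCz11 was used here, so peaks are given by position and neither their genes nor their sequences are shown.

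The question was first how many peaks each group had on the arm. DN exceeded Ctrl by little there, with 917 against 768 peaks, a ratio of 1.19 (95% interval 1.08 to 1.32). Below 27 Mb the ratio was 2.02 (95% interval 1.78 to 2.30), and on the 24 other chromosomes it ranged from 1.74 to 2.33 with a median of 2.07. The odds ratio of DN to Ctrl peaks on the arm against the rest of chromosome 4 was 0.59 (95% interval 0.50 to 0.69), and against all other chromosomes it was 0.58 (95% interval 0.52 to 0.64). Per Mb, DN peaks were sparser on the arm and Ctrl peaks slightly denser, the second through the end of the arm alone. The arm had 18.0 DN peaks per Mb, against 27.04 below 27 Mb and 26.2 on the other chromosomes. In Ctrl it had 15.04 peaks per Mb, against 13.4 below 27 Mb and 12.7 on the other chromosomes. From 29 to 72 Mb the density was only 9.23 per Mb in DN and 9.79 per Mb in Ctrl, both below the rest of chromosome 4, and from 72 Mb on it was 79.4 in DN and 52.9 in Ctrl. DN peaks covered 0.695 Mb of the arm and Ctrl peaks 0.538 Mb. Below 27 Mb, DN peaks covered 0.660 Mb and Ctrl peaks 0.261 Mb.

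By fold, the DN list reaches lower than the Ctrl list, with a lowest fold of 2.87 against 3.15 in Ctrl. By −log10 q the order was the opposite on the arm, where peaks at the lowest fold of their list had the lower value in Ctrl. Which list reaches to weaker peaks thus depends on the scale, and the filter used here is by fold only. With a fold of at least 3.15 required in both lists, 557 DN and 768 Ctrl peaks remained on the arm, and the ratio was 0.73. This limit is the lowest fold of the Ctrl list, so it removes DN peaks only and can only lower a ratio. The same filter left 509 DN and 361 Ctrl peaks below 27 Mb, a ratio of 1.41, and it gave 1.29 on the other chromosomes. The odds ratio against the rest of chromosome 4 stayed under 1 at 0.51 (95% interval 0.43 to 0.61). Fold is relative to the background of each library, so an equal fold is not exactly an equal number of reads.

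Along the arm the balance of the lists changed with position. Of its 52 bins of 1 Mb, 20 had more Ctrl than DN peaks, 28 had more DN peaks and 4 were equal. Over chromosomes 1 to 25, 5.88% of 1 Mb bins had more Ctrl than DN peaks, with 60 of 1281 bins on the other chromosomes and 0 of 27 on chromosome 4 below 27 Mb. Most of these bins lay close together. From 37 to 53 Mb, a stretch picked after its values were seen, Ctrl was ahead in 13 of 16 bins, with 122 DN peaks against 219 Ctrl peaks. The widest differences there were at 47 to 48 Mb, with 12 DN and 33 Ctrl peaks, and at 44 to 45 Mb, with 7 DN and 27 Ctrl peaks. When the genome was divided into windows of 5 Mb with at least 20 peaks, the windows with the lowest DN to Ctrl ratio of all 280 were 45 to 50 Mb of the arm (40 DN and 85 Ctrl peaks, ratio 0.47), 40 to 45 Mb (44 and 82, ratio 0.54) and 35 to 40 Mb (21 and 26, ratio 0.81). They were the only 3 windows with a ratio under 1.

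The last 6 Mb were the densest part of the arm. From 72 Mb to the last listed peak, DN was ahead in all 7 bins, with 482 DN and 321 Ctrl peaks (ratio 1.502). This end held the larger part of the DN peaks of the arm and the smaller part of its Ctrl peaks. The fullest bin of both lists was 73 to 74 Mb, with 158 DN and 107 Ctrl peaks, and the next was 72 to 73 Mb, with 116 DN and 60 Ctrl peaks. Between 53 and 72 Mb peaks were sparse, at 201 in DN and 132 in Ctrl over 19 bins, with a ratio of 1.52, like that of the end. From 27 to 37 Mb there were 112 DN and 96 Ctrl peaks (ratio 1.17). Without the end from 72 Mb on, the arm had 435 DN and 447 Ctrl peaks, a ratio of 0.97 (95% interval 0.85 to 1.11). This remainder includes the stretch from 37 to 53 Mb, the only one of these stretches with a ratio under 1 (0.56).

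**Figure D1:**
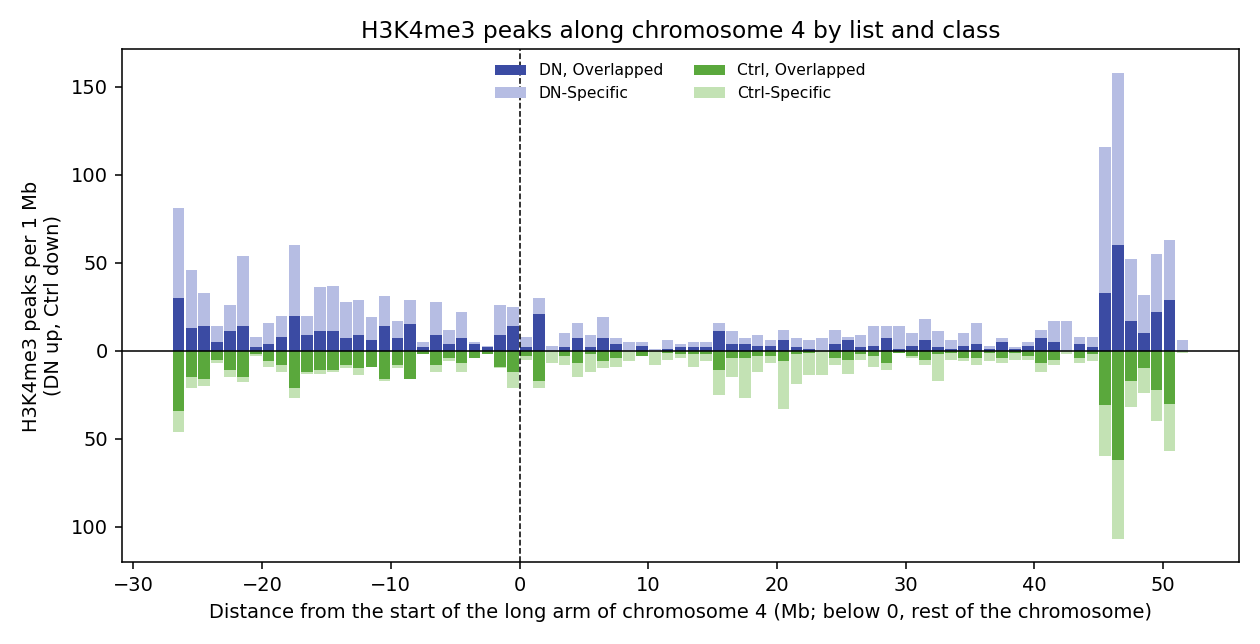
H3K4me3 peaks per 1 Mb along chromosome 4, with DN above the line and Ctrl below it, plotted by distance from the start of the long arm (dashed line). Dark bars are Overlapped peaks and light bars are peaks found in 1 list only. From 10 to 26 Mb into the arm, 169 of 219 Ctrl peaks are Ctrl-Specific (light green), and Ctrl is ahead in 13 of 16 bins. Both lists are densest in the last 6 Mb of the arm, with up to 158 DN and 107 Ctrl peaks per Mb.

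It was next asked which peaks of the arm were common to both lists. A peak was called Overlapped when it shared at least 1 bp with a peak of the other list, and DN-Specific or Ctrl-Specific otherwise. Of the 917 DN peaks, 330 were Overlapped, or 36.0% (95% interval 32.9 to 39.2), and 587 were DN-Specific. The DN share hardly differed from that below 27 Mb, 35.8% (95% interval 32.3 to 39.4), with an odds ratio of 1.01 (95% interval 0.82 to 1.24). On the 24 other chromosomes taken singly it ran between 28.3% and 35.3%, below that of the arm, with its high end inside the interval of the arm. Against all other chromosomes together the odds ratio was 1.24 (95% interval 1.08 to 1.42). DN-Specific peaks were 64.0% of the DN peaks on the arm and 68.5% of all DN peaks. Of the 768 Ctrl peaks, 326 were Overlapped, or 42.4% (95% interval 38.9 to 46.0), and 442 were Ctrl-Specific. Below 27 Mb, 282 of 361 Ctrl peaks were Overlapped, or 78.1% (95% interval 73.5 to 82.3), and the odds ratio was 0.21 (95% interval 0.15 to 0.28). Ctrl-Specific peaks were thus 57.6% of Ctrl peaks on the arm, 21.9% below 27 Mb and 33.0% over all chromosomes. The DN and Ctrl lists hold nearly equal numbers of Overlapped peaks on the arm, 330 and 326, and like numbers below 27 Mb, 261 and 282. With like DN shares, the lower Ctrl share on the arm therefore largely restates the lower ratio of peak numbers. On the 24 other chromosomes taken singly, the Overlapped share of Ctrl peaks ran between 62.0% and 73.9%. The arm held 7.77% of all Ctrl-Specific peaks of the list, against 2.82% of the Overlapped Ctrl peaks.

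**Figure D2:**
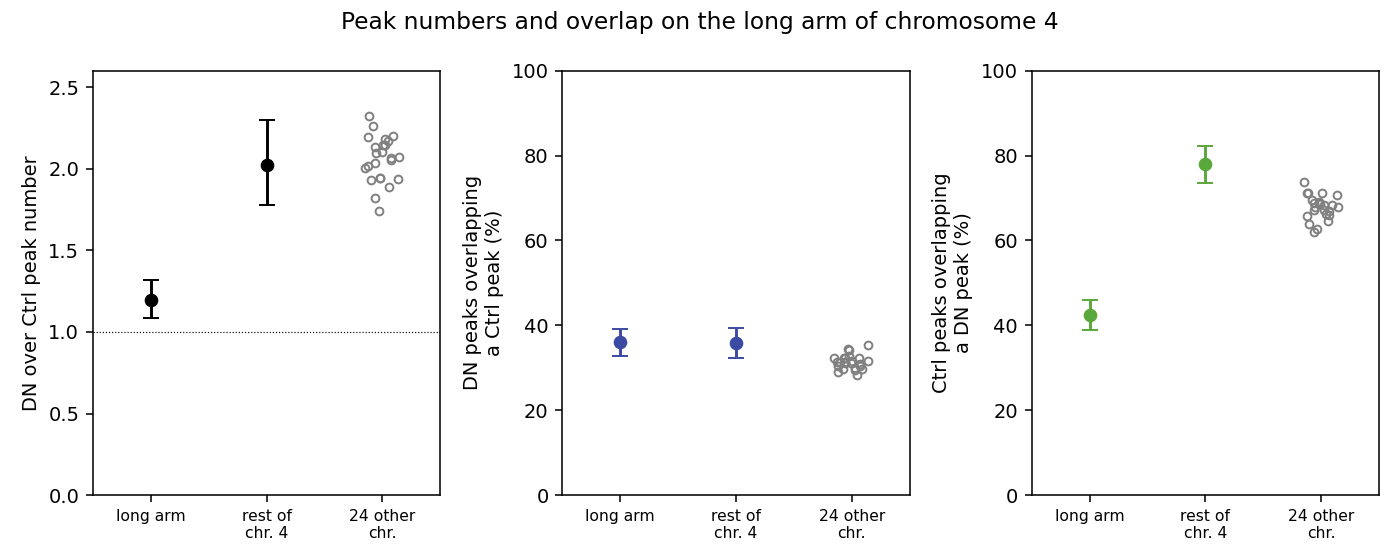
Left, ratio of DN to Ctrl peak numbers. Middle, share of DN peaks that overlap a Ctrl peak. Right, share of Ctrl peaks that overlap a DN peak. Filled points with bars are the long arm and the rest of chromosome 4 with 95% counting intervals, and open circles are the 24 other chromosomes. The arm lies below every other chromosome in the left panel (1.19) and in the right panel (42.4%), and slightly above each of them in the middle one (36.0%). Overlapped peaks are nearly equal in number in both lists, so the right panel largely follows from the other panels.

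The low Ctrl share was not the same in every stretch. At the start of the arm, from 27 to 29 Mb, 20 of 26 Ctrl peaks were Overlapped, or 76.9% (95% interval 56.4 to 91.0), close to the share below 27 Mb. The share was 22.8% from 37 to 53 Mb, where 169 of 219 Ctrl peaks were Ctrl-Specific, and 53.6% from 72 Mb on, where 149 of 321 were. The peaks there are so dense that DN peaks covered 6.90% of the sequence and Ctrl peaks 3.78%, against 1.36% and 1.05% of the whole arm, and the part of chance overlap in these shares was not tested. For DN peaks the shares were 41.8% from 37 to 53 Mb and 35.5% from 72 Mb on. From 37 to 53 Mb there were 51 Overlapped DN and 50 Overlapped Ctrl peaks. The low Ctrl share there thus largely restates the Ctrl excess for which that stretch was picked. In the 100 kb windows of the arm, 78 of 510 held DN peaks only, 83 held Ctrl peaks only, 184 held both and 165 held neither. Below 27 Mb, 31 of 270 windows held DN peaks only and 10 held Ctrl peaks only.

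The distance from a Specific peak to the other list was more spread out on the arm than below it in DN, and longer in Ctrl. The median distance from a DN-Specific peak to the nearest Ctrl peak was 7.81 kb on the arm and 8.78 kb below it, and on the arm 79 of 587, or 13.5% (95% interval 10.8 to 16.5), were over 100 kb away. Below 27 Mb, 11 of 469 were that far, or 2.35% (95% interval 1.18 to 4.16), and on the other chromosomes 6.74% were (95% interval 6.42 to 7.08). At a limit of 10 kb no such excess was seen, with 45.0% of DN-Specific peaks farther away on the arm (95% interval 40.9 to 49.1) and 47.8% below it (95% interval 43.2 to 52.4). At the near end, 76 DN-Specific peaks of the arm, or 12.9% (95% interval 10.3 to 15.9), lay within 1 kb of a Ctrl peak, against 5.12% below 27 Mb (95% interval 3.31 to 7.52). Ctrl-Specific peaks of the arm were a median of 13.3 kb from the nearest DN peak, against 6.74 kb below 27 Mb, and 67 of 442, or 15.2% (95% interval 11.9 to 18.8), were over 100 kb away. Below 27 Mb, 3 of 79 were, or 3.80% (95% interval 0.79 to 10.7). Within 1 kb of a DN peak lay 59 Ctrl-Specific peaks of the arm, or 13.3% (95% interval 10.3 to 16.9), against 12.7% below 27 Mb (95% interval 6.24 to 22.0).

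Strength was compared as the rank of a peak by −log10 q within its own list. Peaks of the arm ranked low in both lists, at a median percentile of 44.3 in DN and 41.8 in Ctrl, against 55.7 in DN and 52.7 in Ctrl below 27 Mb. Over the 24 other chromosomes the median percentile ran between 46.9 and 56.1 in DN, above that of the arm. In Ctrl it ran between 42.3 and 53.7, with its low end inside the interval of the arm (38.6 to 44.9). A −log10 q of at least 4, the level of the authors' q-value setting, was reached by 83 DN peaks, or 9.05% (95% interval 7.27 to 11.1), against 25.5% below 27 Mb (95% interval 22.4 to 28.8). In Ctrl it was reached by 47 peaks, or 6.12% (95% interval 4.53 to 8.06), against 10.5% below 27 Mb (95% interval 7.56 to 14.2). The class made a difference. DN-Specific peaks had like medians on the arm and below it, with a percentile of 40.7 against 42.2, while Overlapped DN peaks had a median percentile of only 54.5 on the arm against 83.3 below it. Ctrl-Specific peaks were stronger on the arm, at a median percentile of 38.4 and a median fold of 3.49, than below it, at 23.7 and 3.33.

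Elsewhere in the genome the Overlapped share climbed steeply with strength, and on the arm this relation was flatter. Among the strongest 25% of the DN list, 61.8% of the peaks on the arm were Overlapped (95% interval 52.6 to 70.4, n = 123), against 80% below 27 Mb (95% interval 74.1 to 85.1) and 76.7% on the other chromosomes. Among the strongest 25% of the Ctrl list the share was 62.5% on the arm (95% interval 53.2 to 71.2, n = 120), against 97.8% below 27 Mb (95% interval 92.4 to 99.7) and 91.4% on the other chromosomes. Among the strongest 10% of the DN list, 33 of 36 peaks on the arm were Overlapped, much like elsewhere. The counts were 88 of 98 below 27 Mb and 3093 of 3355 on the other chromosomes. In the Ctrl list they were 40 of 46 on the arm, 37 of 38 below 27 Mb and 1587 of 1640 on the other chromosomes. At the weak end the order of the DN shares was the opposite of that in the strongest 25%. In the weakest 25% of the DN list, 26.4% of the peaks on the arm were Overlapped (95% interval 20.8 to 32.6, n = 231), against 6.45% below 27 Mb (95% interval 3.14 to 11.5). In the weakest 25% of the Ctrl list, 35.2% were Overlapped on the arm (95% interval 28.8 to 41.9) and 51.8% below it (95% interval 40.6 to 62.9).

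**Figure D3:**
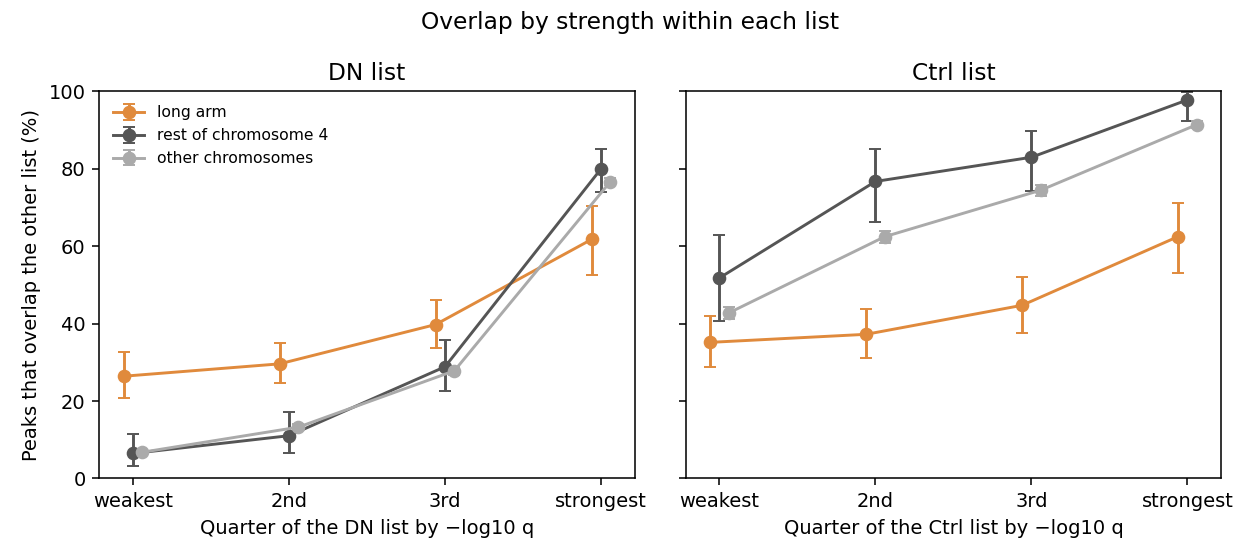
Share of peaks that overlap the other list (vertical axis, %) by strength, in classes of 25% of the list ranked on −log10 q from weakest to strongest, for DN (left) and Ctrl (right). Points are the long arm, the rest of chromosome 4 and the other chromosomes, with 95% counting intervals. On the arm the DN share climbs from 26.4% to 61.8% and the Ctrl share from 35.2% to 62.5%, a shallower slope than in the other regions.

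With both classes pooled over the whole arm, peaks had a lower median width than below it. The intervals overlapped only slightly in DN and widely in Ctrl. The median width was 526 bp in DN (95% interval 489 to 572) and 488 bp in Ctrl (95% interval 438 to 532), against 595.5 bp in DN (95% interval 563 to 640) and 529 bp in Ctrl (95% interval 483 to 586) below 27 Mb. On the 24 other chromosomes the DN median ran between 569 and 672 bp, above that of the arm, with its low end inside the interval of the arm. The Ctrl median ran between 457 and 564 bp there, a range that includes that of the arm. Overlapped peaks had a median of 741.5 bp in DN and 649.5 bp in Ctrl on the arm, and of 1191 bp in DN and 622.5 bp in Ctrl below it. The Overlapped DN peaks thus differed most in width between the arm and the rest. DN-Specific peaks measured 455 bp on the arm and 451 bp below it, and Ctrl-Specific peaks 382.5 bp on the arm and 318 bp below it. Within each class the Ctrl median was thus higher on the arm than below it, with intervals that overlap. Width also varied along the arm. From 29 to 72 Mb the medians were 415 bp in DN and 409 bp in Ctrl, and 35.0% of DN and 34.4% of Ctrl peaks were under 300 bp. From 72 Mb on the medians were 650 bp in DN and 563 bp in Ctrl, both above those below 27 Mb, with intervals that overlap.

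Peaks that matched 1 to 1 gave the most direct view of change at the same site. There were 290 such pairs on the arm, 227 below 27 Mb and 9513 on other chromosomes. In the pairs of the arm the median width was 731.5 bp in DN and 627.5 bp in Ctrl, and the median ratio of DN to Ctrl width was 1.07 (95% interval 1.02 to 1.17). Below 27 Mb, pairs were 1136 bp wide in DN and 609 bp in Ctrl, and the ratio was 1.69 (95% interval 1.55 to 1.85), as on the other chromosomes (1.66, 95% interval 1.63 to 1.68). A DN peak at least 1.5 times as wide as its Ctrl partner was found in 98 of the 290 pairs, or 33.8% (95% interval 28.4 to 39.6). This is less than the 55.6% over all chromosomes and the 58.6% below 27 Mb (95% interval 51.9 to 65.1). The reverse, a Ctrl peak at least 1.5 times as wide, was found in 55 pairs, or 19.0% (95% interval 14.6 to 23.96), against 2.64% below 27 Mb (95% interval 0.98 to 5.66).

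Fold behaved in the same way. In the 290 pairs of the arm it had a median of 3.36 in DN and 3.64 in Ctrl, and the median ratio was 0.93 (95% interval 0.91 to 0.95). The ratio was 1.13 below 27 Mb (95% interval 1.10 to 1.17) and 1.10 on the other chromosomes (95% interval 1.09 to 1.11). DN had the lower fold in 200 of the 290 pairs, or 69.0% (95% interval 63.3 to 74.2), against 23.3% below 27 Mb (95% interval 18.0 to 29.4). The lowest listed fold is 2.87 in DN and 3.15 in Ctrl, so a pair at both limits has a ratio of 0.91 by construction. Pairs of the arm lie nearer these limits than pairs below 27 Mb, whose median folds were 4.44 in DN and 3.77 in Ctrl. How far the limits lower the ratio and raise this count on the arm was not tested. The 126 pairs from 29 to 72 Mb had median ratios of 0.997 for width and 0.89 for fold, and the 152 pairs from 72 Mb on had 1.36 and 0.96. With a fold of at least 3.15 in both lists, 204 pairs were left on the arm. Their median ratios were 1.06 for width and 0.98 for fold (95% interval 0.95 to 1.01, which spans 1), against 1.67 and 1.15 below 27 Mb. By percentile of −log10 q within each list, DN minus Ctrl had a median of 1.91 over the 290 pairs (95% interval 0.004 to 6.71). Below 27 Mb this median was 20.2 (95% interval 15.1 to 23.9).

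**Figure D4:**
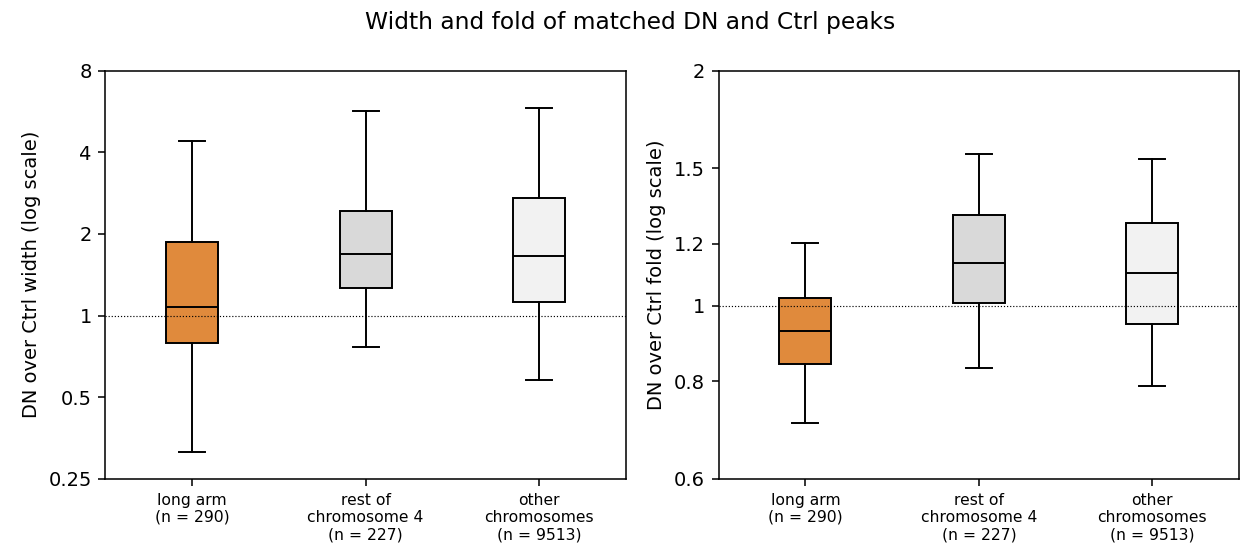
Ratio of DN to Ctrl width (left) and of DN to Ctrl fold (right), on log scales, for peaks that match 1 to 1 on the long arm, the rest of chromosome 4 and the other chromosomes. Boxes give the median and quartiles and whiskers the 5th and 95th percentiles over pairs. The arm's medians, 1.07 for width and 0.93 for fold, lie below those of both other regions, 1.69 and 1.66 for width and 1.13 and 1.10 for fold.

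The pairs with the largest changes of fold lay in different stretches. The lowest ratios belonged to the pair at chr4:33967092-33968238 in DN, with a fold of 3.63 in DN and 8.50 in Ctrl (ratio 0.43), and to the pair at chr4:31347608-31349796 in DN, with a fold of 3.34 in DN and 6.90 in Ctrl (ratio 0.48). Both kept their width, with ratios of 0.96 for each. The highest ratios were near the end of the arm, at chr4:74109239-74109762 in DN, with a fold of 6.61 in DN and 3.81 in Ctrl (ratio 1.73), and at chr4:77266639-77267694 in DN, with 6.60 in DN and 4.29 in Ctrl (ratio 1.54). These pairs were picked for their values and are a description only.

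The spacing of the peaks was then examined. The gap to the next peak of the same list had a median of 7.30 kb in DN (95% interval 5.95 to 9.01) and 14.5 kb in Ctrl (95% interval 11.5 to 17.3), against 8.46 kb in DN (95% interval 6.27 to 10.2) and 26.4 kb in Ctrl (95% interval 19.7 to 34.0) below 27 Mb. Means ran the other way in DN, at 54.9 kb on the arm and 36.0 kb below it. The closer spacing of DN than of Ctrl peaks on the arm was not kept when DN peaks were left out. The median DN gap was 18.9 kb at a fold of at least 3.15 in both lists (557 DN peaks). It was 30.3 kb with the DN list shortened to the Ctrl number (376 DN peaks), against 14.5 kb in Ctrl. Both settings kept all 768 Ctrl peaks of the arm, so that wider DN gaps follow from the removal of DN peaks. The longest stretch with no peak in either list measured 1108 kb, from 45632893 to 46741074, inside the Ctrl-rich part. Peaks whose gaps were at most 10 kb were joined into runs. In DN, 495 of 917 peaks, or 54.0% (95% interval 50.7 to 57.2), stood in runs of 3 or more, about as many as the 55.9% below 27 Mb (95% interval 52.2 to 59.5). In Ctrl, 346 of 768 peaks did, or 45.1% (95% interval 41.5 to 48.6), against 22.7% below 27 Mb (95% interval 18.5 to 27.4). The DN share in runs was 39.1% at a fold of at least 3.15 and 31.1% with the shortened list, below the 45.1% of Ctrl. A lower DN share likewise follows from the removal of DN peaks. Taken over the whole arm, Ctrl peaks were more clustered than on the rest of the chromosome. Without the end from 72 Mb on, the shares in runs were 25.3% in DN and 27.7% in Ctrl (95% interval 23.6 to 32.1), the second overlapping the interval below 27 Mb, and the median Ctrl gap was 35.1 kb. This end held 385 of the 495 DN peaks and 222 of the 346 Ctrl peaks in runs.

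**Figure D5:**
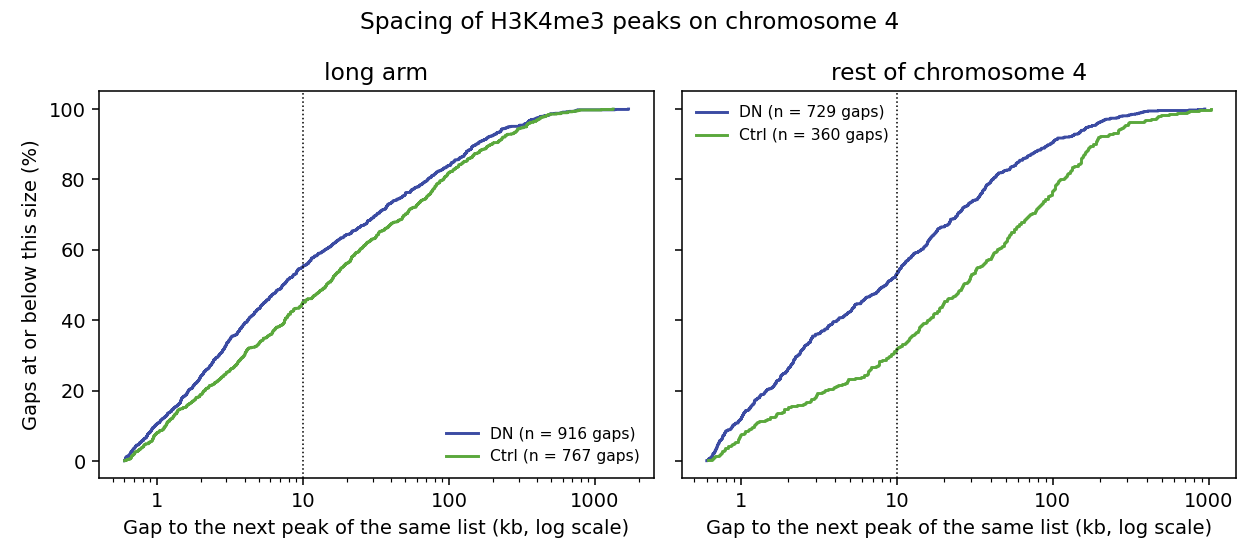
Cumulative share of gaps between neighbouring peaks of the same list (horizontal axis, kb on a log scale) on the long arm (left) and the rest of chromosome 4 (right), DN in blue and Ctrl in green. The dotted line marks the 10 kb limit used for runs. On the arm, 55.3% of DN and 45.1% of Ctrl gaps are at most 10 kb, against 53.4% and 32.2% on the rest of the chromosome.

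Long runs lay at the ends of the arm, mostly the far one. Over the whole arm there were 14 runs of 10 or more peaks in DN, holding 253 peaks, and 6 in Ctrl, holding 86, while chromosome 4 below 27 Mb had 4 such runs in DN and 0 in Ctrl. From 72 Mb on there were 13 of these runs in DN (240 peaks) and 5 in Ctrl (71 peaks), the remaining 1 of each list lay between 27 and 29 Mb, and from 29 to 72 Mb there were 0 in both. The longest DN runs held 45 peaks over 151.8 kb from 73446860 to 73598691, with 28 Ctrl peaks in that span, and 26 peaks over 87.9 kb from 72537531 to 72625478, of which 2 were Overlapped. The peaks of both runs were weak, with median folds of 3.16 and 3.14. The longest Ctrl runs held 23 peaks over 100.3 kb from 73730982 to 73831290, with 22 DN peaks in the same span, and 17 peaks over 57.6 kb from 73446463 to 73504076, with 22 DN peaks. A few runs of 3 or more were confined to 1 list, namely 7 of 69 in DN and 12 of 69 in Ctrl. Such runs were not counted outside the arm, so whether these numbers are unusual is not known. In the Ctrl-rich stretch the longest run held 9 Ctrl peaks from 44551994 to 44607649, each of them Ctrl-Specific, with a single DN peak in the span.

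Among the strong peaks of the arm, the domain from 28552346 to 28617127 (DN positions) stood apart from the weak runs at the far end. It held 13 DN peaks covering 37.1 kb, with a median fold of 7.36, and 15 Ctrl peaks covering 43.5 kb, with a median fold of 5.60. In each list 7 of its peaks were among the strongest 1%. Its widest peak was also the widest of the arm in both lists, and spanned 11942 bp in DN (28565721 to 28577662) and 12001 bp in Ctrl (28565714 to 28577714). The fold of this peak was 12.9 in DN and 20.4 in Ctrl. The next peak along, at 28583918 to 28589908 in DN, had a fold of 8.65 in DN and 16.5 in Ctrl, and the one at 28555475 to 28562645 in DN had 7.38 in DN and 12.2 in Ctrl. A Ctrl peak of 6794 bp, from 28590725 to 28597518, matched 2 DN peaks of 1984 and 2198 bp, with folds of 4.44 and 10.4 in DN against 10.2 in Ctrl. DN thus had the lower fold at the 3 widest 1 to 1 pairs of this domain, where the ratio of DN to Ctrl width lay between 0.92 and 1.05. By rank within each list the same pairs hardly differed. In the order given above, their percentiles of −log10 q were 99.88, 99.66 and 99.15 in DN. In Ctrl they were 99.88, 99.82 and 99.59. At the other end of the arm, the peak from 77555407 to 77561709 in DN was 6303 bp wide with a fold of 9.78, against 6358 bp and 12.4 in Ctrl.

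The arm also held narrow peaks with a high fold. The strongest of all its peaks was 352 bp wide in DN (63365069 to 63365420), with a fold of 35.1, and 351 bp wide in Ctrl (63365072 to 63365422), with a fold of 38.9 and nearly the same edges. The third strongest DN peak was of the same kind, 393 bp wide (28707124 to 28707516) with a fold of 11.6, and its Ctrl partner was 414 bp wide with 12.03. Of the DN peaks with a fold of at least 5, 9 of 38 on the arm were under 400 bp, or 23.7% (95% interval 11.4 to 40.2), against 4 of 96 below 27 Mb, or 4.17% (95% interval 1.15 to 10.3), and 5.14% on the other chromosomes (95% interval 4.43 to 5.94). In Ctrl they were 15 of 40 on the arm, or 37.5% (95% interval 22.7 to 54.2), 2 of 28 below 27 Mb, or 7.14% (95% interval 0.88 to 23.5), and 20.2% on the other chromosomes (95% interval 18.0 to 22.7). The Ctrl intervals of the arm and of the rest of chromosome 4 overlap. Whether the input libraries have signal at these narrow sites was not analysed here.

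The strongest Specific peaks differed in width between the lists. Ranked by −log10 q, the 3 leading DN-Specific peaks were 882 bp wide from 34589186 to 34590067 (fold 6.05), 894 bp wide from 72286719 to 72287612 (fold 5.90) and 541 bp wide from 74943111 to 74943651 (fold 5.46), and the nearest Ctrl peaks were 30.4, 9.73 and 19.2 kb away. The 3 leading Ctrl-Specific peaks were 230 bp wide from 54241160 to 54241389 (fold 7.62), 360 bp wide from 43786372 to 43786731 (fold 7.40) and 223 bp wide from 35641654 to 35641876 (fold 7.06). Of the 15 narrow Ctrl peaks with a fold of at least 5 on the arm, 5 were Ctrl-Specific, while all 9 of the narrow DN peaks were Overlapped. On the other chromosomes 24 of 232 such Ctrl peaks were Ctrl-Specific and 71 of 177 such DN peaks were DN-Specific. The counts of the arm are small. In the Ctrl-rich stretch from 37 to 53 Mb the 169 Ctrl-Specific peaks were mostly weak, with a median fold of 3.56 and a median width of 367 bp, and 2 of them reached a −log10 q of 4. Past that level the stretch held 5 DN peaks, 1 of them DN-Specific, and 6 Ctrl peaks. Below 27 Mb, 186 DN and 38 Ctrl peaks passed it, a ratio of 4.89. Like counts were not particular to the stretch, as 19 DN and 21 Ctrl peaks passed this level from 27 to 37 Mb. From 53 to 72 Mb, 22 DN and 10 Ctrl peaks passed it. The stretch was picked for its Ctrl excess, so its counts, which rest on few peaks, are a description only. The 169 Ctrl-Specific peaks lay a median of 35.0 kb from the nearest DN peak.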

How the data were processed

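Broad H3K4me3 peak lists of 1 DN and 1 Ctrl library were analysed, and the 2 input libraries were not. Per the study's methods and the submitters' processing notes, paired reads were trimmed with Trimmomatic 0.39, placed on GRCz11 by STAR 2.7.8a with unique hits only and deduplicated with Picard 2.25.0, equal numbers of pairs were drawn per condition, and MACS2 called broad peaks at a q setting of 0.0001 without local background, so that sites with high input can be listed. For each peak the authors' caller wrote a fold, the ratio of signal over background for the genome as a whole, and the −log10 of its p-value and of its q-value. A deposited score repeats the −log10 q on a coarser scale. All are region averages, hold no read counts and belong to their own list.

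Peaks were grouped by list and position and intersected with bedtools 2.31.1 (minimum 1 bp). Intervals are exact: Clopper-Pearson for shares, conditional for ratios and odds ratios, order statistics for medians. They are counting intervals at 95%. Computation used pandas 2.3.3 and numpy 2.4.6 under Python 3.11.15, intervals came from scipy 1.17.1, figures from matplotlib 3.10.9, and the overlap step was tested on simulated data. Members, comparisons and the rule for single peaks (the 3 highest folds, 3 widest, 3 strongest Specific peaks and 2 longest runs per list, and the fullest 1 Mb bin) were chosen with earlier results of these data known. The pairs with the largest changes of fold, the other peaks of the domain near 28.6 Mb, further single runs and the stretches along the arm were picked after their values were seen. Sequence content, planned if a GRCz11 genome was at hand, was not analysed.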

Additional observations from a re-analysis of the deposited data

How the results depend on the processing

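Ratios, shares and medians count as changed outside the 95% interval of the value in the report, and numbers of bins when over 1.5 times apart. Starting the arm at 25 or 30 Mb changed none of the 11 results recomputed under it, namely the ratio of peak numbers, both Overlapped shares and the widths, percentiles, gaps and runs of both lists. The alternative without the end from 72 Mb, and those for pairs and bins, were chosen after seeing the data.

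The DN to Ctrl ratio on the arm was 1.77 among peaks past a −log10 q of 4 (83 and 47 peaks), it reversed to 0.49 with the DN list shortened to the Ctrl number and 0.73 at a fold of at least 3.15, and the excess was lost without the end, at 0.97 (95% interval 0.85 to 1.11). Below 27 Mb it was 4.89, 1.14 and 1.41 under the first 3 of these, above that of the arm each time. The loss without the end was not uniform, with ratios of 1.17 from 27 to 37 Mb, 0.56 from 37 to 53 Mb and 1.52 from 53 to 72 Mb. The Overlapped share of DN peaks was 46.8% with the shortened list, 41.1% at a fold of at least 3.15, 17.2% with 50% of both peaks required and 44.3% with 1 kb of tolerance. That of Ctrl peaks was 23.0%, 30.3%, 20.6% and 50.1%, and 59.6% among peaks past a −log10 q of 4 and 34.5% without the end.

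The median width was 730 bp in DN and 540 bp in Ctrl among peaks past a −log10 q of 4, and 422 and 428 bp without the end. The median Ctrl percentile was 85.3 ranked within the peaks past a −log10 q of 4 and 48.2 by width. The median gap in DN was 132 kb among peaks past a −log10 q of 4, 30.3 kb with the shortened list, 18.9 kb at a fold of at least 3.15, 10 kb with peaks under 1 kb apart merged and 37.6 kb without the end. In Ctrl it was 563 kb among peaks past a −log10 q of 4, 17.8 kb merged and 35.1 kb without the end. The share of DN peaks in runs was 19.3%, 31.1%, 39.1%, 48.4% and 25.3% under the same 5 alternatives, and 40.6% and 63.6% with gaps of up to 5 and 20 kb. That of Ctrl peaks was 27.7% among peaks past a −log10 q of 4, 38.8% merged, 27.7% without the end, and 33.1% and 55.7% with gaps of up to 5 and 20 kb. In matched pairs, the width ratio without the end was 0.999 (95% interval 0.92 to 1.04), an interval that spans 1. The fold ratio was 0.88 without the end (95% interval 0.86 to 0.92). At a fold of at least 3.15 it was 0.98 (95% interval 0.95 to 1.01), an interval that also spans 1. Bins with more Ctrl than DN peaks numbered 34 at a fold of at least 3.15 and 10 of 36 among peaks past a −log10 q of 4. Fewer peaks, wider gaps and fewer runs under a filter follow from the filter, and for the remaining changes the cause was not tested.

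No paired analysis was possible because DN and Ctrl are 1 library apiece. The lists hold no reads per peak, so that the signal of 1 group at a site listed only in the other is not known.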

Other observations

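Sites with sharp borders were looked for as pairs in which both edges agree within 20 bp between DN and Ctrl. There were 11 among the 290 pairs of the arm, or 3.79% (95% interval 1.91 to 6.69), 0 of 227 below 27 Mb (upper bound of the 95% interval 1.61%) and 138 of 9513 on the other chromosomes, or 1.45% (95% interval 1.22 to 1.71). The 11 pairs of the arm had a median width of 352 bp in DN and 351 bp in Ctrl and a median fold of 5.74 in DN and 6.95 in Ctrl, and 8 of them had a Ctrl fold of at least 5. Why these edges coincide was not tested, and the pattern was noticed in these data.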
